A study of Mus musculus with 4 samples.

Results

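The 40 genes described here encode proteins that open replication origins, copy DNA, supply nucleotides and histones to the replication fork and guard that fork. They were taken from a list of gene symbols, and all 40 symbols were found among the 31053 genes of the count files. Their unique molecular identifiers (UMIs, each counting 1 captured RNA molecule) were summed per cell type and library, and their share of the UMIs of each cell was averaged over cells.

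DNA is copied once per division, in S phase. Before that, the MCM helicase is loaded at origins with the help of Cdc6, and Gmnn (geminin) prevents a second loading; Cdc45 and Gins2 then join the helicase, and polymerases, the Pcna clamp and its loader copy both strands. Transcription of many of these genes is switched on by E2F factors at the G1/S boundary. In the intestinal crypt, stem cells and early progenitors divide, and goblet, Paneth, tuft and enteroendocrine cells leave the cycle as they mature.

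The cells were TOM+ crypt cells from mouse duodenum, sorted after removal of dead (DAPI+) cells and sequenced with droplet 3' chemistry. Both groups carried an Atoh1-driven, tamoxifen-activated Cre and the R26RTom reporter, and both received 2 doses of 1 mg/mL tamoxifen 24 h apart, with harvest 12 h after the last dose. The WT group (2 libraries) had the genotype Atoh1CreER-T2;R26RTom. The APC-KO group (2 libraries) also carried Apcfl/fl, and its driver is written Atoh1Cre in the sample labels and Atoh1CreER-T2 in the series text. Atoh1 marks the secretory lineage, so the reporter and the deletion were restricted to cells in which that driver had been active, and cells of other origin enter only as far as the sort let them through. The labels give neither age, sex nor strain, and do not say that the libraries of a group came from separate animals, so p-values measure only the spread between libraries.

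The authors kept 4814 and 3821 cells in WT replicates 1 and 2, and 356 and 6243 in APC-KO replicates 1 and 2, and named 12 cell types. Kept cells had over 900 and under 3000 genes. The median depth was 4841.5 and 5354 UMIs per cell in the WT libraries, and 8370 and 3973 in APC-KO replicates 1 and 2. The first APC-KO library stood apart. Of its barcodes with over 900 genes and under 7% mitochondrial UMIs, 77.0% had 3000 genes or more and were not kept, against 15.8% and 16.5% in WT and 7.62% in the second APC-KO library. Pairs of libraries shared at most 8 cell barcodes. Apc, the targeted gene, was at 87.2 and 77.9 UMIs per 1000000 (CPM) in the WT libraries and 88.1 in each APC-KO library; 3' counts do not test the deletion, because the floxed exons are not given in the sources used here. Marker levels were read for the 2 types that carry the findings below, and they matched the authors' name for ISC. There 6 stem cell markers, Lgr5 and Olfm4 among them, summed to 3957, 5114, 3285 and 3518 CPM (WT 1, WT 2, APC-KO 1, APC-KO 2). In SEC-PRO the same markers summed to 796, 725, 661 and 857 CPM, and 6 goblet markers to 37499, 33876, 37170 and 33562 CPM. A goblet sum does not by itself show a progenitor type, so the name SEC-PRO is the authors'. Markers of mesenchyme, endothelium and red cells summed to under 1 CPM in ISC and SEC-PRO.

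The genes of this group are known as E2F targets, and the letters of the E2F binding motif were therefore looked for in their promoters. RefSeq promoter windows (GRCm38.p6, 250 bases before to 50 after the start site) matched 30 of the 40 genes. The motif was searched on both strands as TTTCCCGC, TTTGGCGC, TTTCGCGC or TTTGCCGC. It was found in 13 of the 30 (43.3%), against 704 of all 27025 genes with a window (2.60%). In 36 matched genes of G2 and mitosis, 1 held these letters (2.78%), whereas TTTGAA, the letters of the cell cycle homology region of G2/M promoters, was found in 28 of 36 (77.8%), in 6 of the 30 replication genes and in 20.2% of all genes. The MCM helicase genes had the motif in 4 of 5 matched genes, and the 3 nucleotide supply genes (Rrm1, Rrm2 and Tyms) in none. A match of letters is a description and shows no binding. The 4 stretches below are the 150 bases before the start site in 2 helicase genes, the helicase loader and the polymerase gene that departed from the rest in its expression, with the matched letters in capitals.
Mcm6 (chr1:128359706-128359855, minus strand): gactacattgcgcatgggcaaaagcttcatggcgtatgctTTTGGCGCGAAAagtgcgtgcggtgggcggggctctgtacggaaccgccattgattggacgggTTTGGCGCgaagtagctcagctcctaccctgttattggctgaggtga
Mcm5 (chr8:75109359-75109508, plus strand): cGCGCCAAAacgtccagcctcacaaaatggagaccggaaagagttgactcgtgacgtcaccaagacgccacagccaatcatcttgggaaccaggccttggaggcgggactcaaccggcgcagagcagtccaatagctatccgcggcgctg
Cdc6 (chr11:98908001-98908150, plus strand): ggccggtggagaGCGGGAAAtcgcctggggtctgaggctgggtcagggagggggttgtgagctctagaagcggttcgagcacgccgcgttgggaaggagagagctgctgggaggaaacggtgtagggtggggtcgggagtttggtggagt
Pola1 (chrX:93632156-93632305, minus strand): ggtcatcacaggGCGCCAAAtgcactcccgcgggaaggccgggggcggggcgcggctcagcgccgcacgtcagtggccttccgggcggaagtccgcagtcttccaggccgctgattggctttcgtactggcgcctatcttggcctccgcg
The Mcm6 stretch held 3 matches, of which the first 2 overlap on opposite strands.

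The 40 genes were concentrated in 2 of the 12 types. In ISC, the stem cell type, they took 0.286%, 0.294%, 0.239% and 0.283% of a cell's UMIs on average (WT 1, WT 2, APC-KO 1, APC-KO 2). In SEC-PRO, the secretory progenitor type, the values were 0.234%, 0.274%, 0.278% and 0.259%, where the third rests on 5 cells. Every other type lay below both in the WT libraries and in APC-KO replicate 2. GOBLET was the lowest in 3 libraries, at 0.0212%, 0.0198%, 0.0205% and 0.0268%; in APC-KO replicate 1 PANETH-PRE was lower (0.0203%, 11 cells). The mean ISC share was 12.5 times the mean GOBLET share (SD of the 4 libraries' ratios 1.93). The types were named by the authors from these same cells, so the order of types is given without a test.

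**Figure D1:**
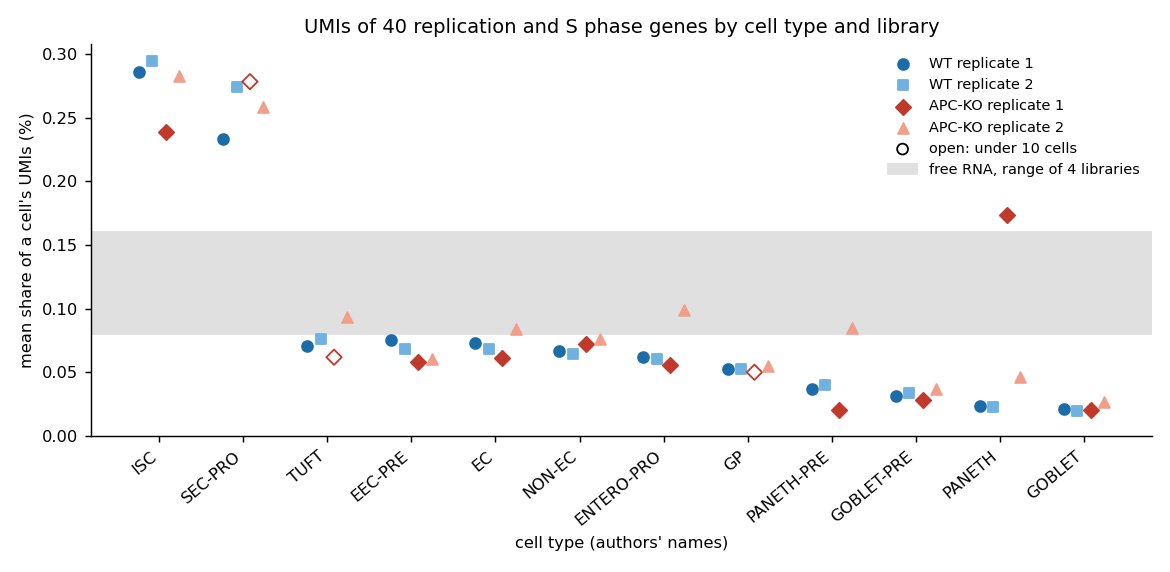
Mean share of a cell's UMIs taken by the 40 genes (y axis, percent) in each of the 12 cell types (x axis), 1 point per library, open points for under 10 cells and the grey band for the free RNA of the 4 libraries (0.0803% to 0.161%). ISC and SEC-PRO lie above the band in all 4 libraries, and the other types lie in or below it except for PANETH in APC-KO replicate 1 (0.174%, 16 cells).

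Fewer cells of a type and less RNA per cell cannot be told apart in sums over a library, so shares were also taken within types. Between these extremes, TUFT, EEC-PRE, EC, NON-EC, ENTERO-PRO and GP held WT shares of 0.0522% to 0.0760%, and PANETH-PRE, GOBLET-PRE and PANETH held 0.0227% to 0.0396%. Droplets with 1 to 50 UMIs, which hold free RNA, had shares of 0.137%, 0.125%, 0.0803% and 0.161%. The WT shares of all types but ISC and SEC-PRO were below that level. The spread of the low shares from 0.0198% in GOBLET to 0.0760% in TUFT was wider than the difference between the WT libraries in any of them.

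Single cells of ISC and SEC-PRO differed in how evenly they carried the genes. After each cell was thinned to 2000 UMIs, the median ISC cell had 5 member UMIs in both WT libraries and in APC-KO replicate 2, and 3.24%, 3.17% and 3.88% of those cells had none. SEC-PRO cells without a member UMI were more frequent, at 15.3%, 14.2% and 8.67%, while the highest SEC-PRO cell (24, 27 and 27 UMIs) was above the highest ISC cell (21, 21 and 22). Cells with under 2000 UMIs were left out here, 20, 7 and 33 in ISC and 13, 7 and 33 in SEC-PRO. Without thinning, 0.174%, 0.439% and 0.643% of ISC cells and 3.13%, 3.10% and 2.67% of SEC-PRO cells had no member UMI. At 2000 UMIs, 5 or more UMIs of both the replication genes and 40 genes of G2 and mitosis were carried by 31.2%, 26.2% and 31.1% of ISC cells and by 24.2%, 21.6% and 32.0% of SEC-PRO cells.

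The MCM helicase genes encode the 6 subunits of the ring that unwinds DNA. Their summed level in ISC was 500, 635, 303 and 561 CPM, and in GOBLET 14.8, 16.3, 9.79 and 32.6 CPM. All 4 libraries showed this gap, with the APC-KO replicate 1 ISC sum resting on 13 cells. The single genes were 17.3 (Mcm6) to 62.1 (Mcm3) times higher in ISC than in GOBLET on average. For comparisons of ISC with SEC-PRO, means are given over the 3 libraries with at least 10 cells of every type (both WT libraries and APC-KO replicate 2). On that basis Mcm6 was at 137 CPM in ISC and 118 CPM in SEC-PRO, Mcm3 at 111 and 80.9, Mcm7 at 104.1 and 84.5, Mcm4 at 92.9 and 84.1, Mcm5 at 68.8 and 66.0, and Mcm2 at 51.8 and 45.7. Mcm3, Mcm4, Mcm6 and Mcm7 were higher in ISC in each of the 3 libraries. A gene's CPM also depends on how well its 3' end is captured, so levels are compared between types and not between genes. Mcm7 lies opposite Cops6 and Ap4m1, and reads of overlapping genes are separated only by strand.

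Of the licensing genes, Cdc6, the helicase loader, was at 23.5 CPM in ISC and 34.2 CPM in SEC-PRO, higher in SEC-PRO in 2 of the 3 libraries. Gmnn (103 and 83.0 CPM) and Gins2 (46.6 and 30.6 CPM) were higher in ISC in each. Dtl, which helps degrade licensing factors during replication, was 105 times higher in ISC than in GOBLET, where 2 UMIs were counted. The nucleotide supply genes were Rrm1 (101 CPM in ISC, 99.8 in SEC-PRO) and Rrm2 (45.7 and 56.4), the subunits of ribonucleotide reductase, and Tyms (116 and 113), thymidylate synthase. Rrm2 was higher in SEC-PRO in each of the 3 libraries. The levels of Rrm1, Rrm2 and Tyms in GOBLET were 7.88, 0.576 and 5.51 CPM.

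Among genes that package new chromatin, Nasp, a histone chaperone, was at 224 CPM in ISC and 159 CPM in SEC-PRO, and Hells, a chromatin remodeller, at 166 and 127 CPM. Atad2 went the other way in each of the 3 libraries, at 129 CPM in ISC and 172 CPM in SEC-PRO. Slbp, which binds histone mRNA, was at 120 and 123 CPM and kept 19.97 CPM in GOBLET. Uhrf1, which carries DNA methylation through replication, had a mean ISC level 116 times its GOBLET level, the latter from 3 UMIs. Usp1, a deubiquitinase of the repair pathway, was at 155 CPM in ISC and 119 CPM in SEC-PRO, and Ung, which removes uracil from DNA, at 42.4 and 31.5 CPM. Nasp, Hells, Usp1 and Ung were higher in ISC in each of the 3 libraries.

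Ccne2, cyclin E2, was higher in SEC-PRO in each of the 3 libraries, at 16.2 CPM in ISC and 25.3 CPM in SEC-PRO. The repressor E2f8 was at 37.3 and 40.3 CPM, higher in SEC-PRO in 2 of them. Among members with any UMI in GOBLET, E2f8 had the widest ratio of ISC to GOBLET, 158, with a single GOBLET UMI; Exo1 and Blm had no UMI in the GOBLET cells of any library. Over the 3 libraries, 27 of 40 genes had their highest mean in ISC, 11 in SEC-PRO, 1 in EC and 1 in TUFT. ISC was above SEC-PRO in all 3 for 18 members and SEC-PRO above ISC in all 3 for 6. Library by library, 28, 22 and 23 members were highest in ISC and 10, 16 and 14 in SEC-PRO (WT 1, WT 2, APC-KO 2). In these 3 libraries all 40 genes were higher in ISC than in GOBLET.

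**Figure D2:**
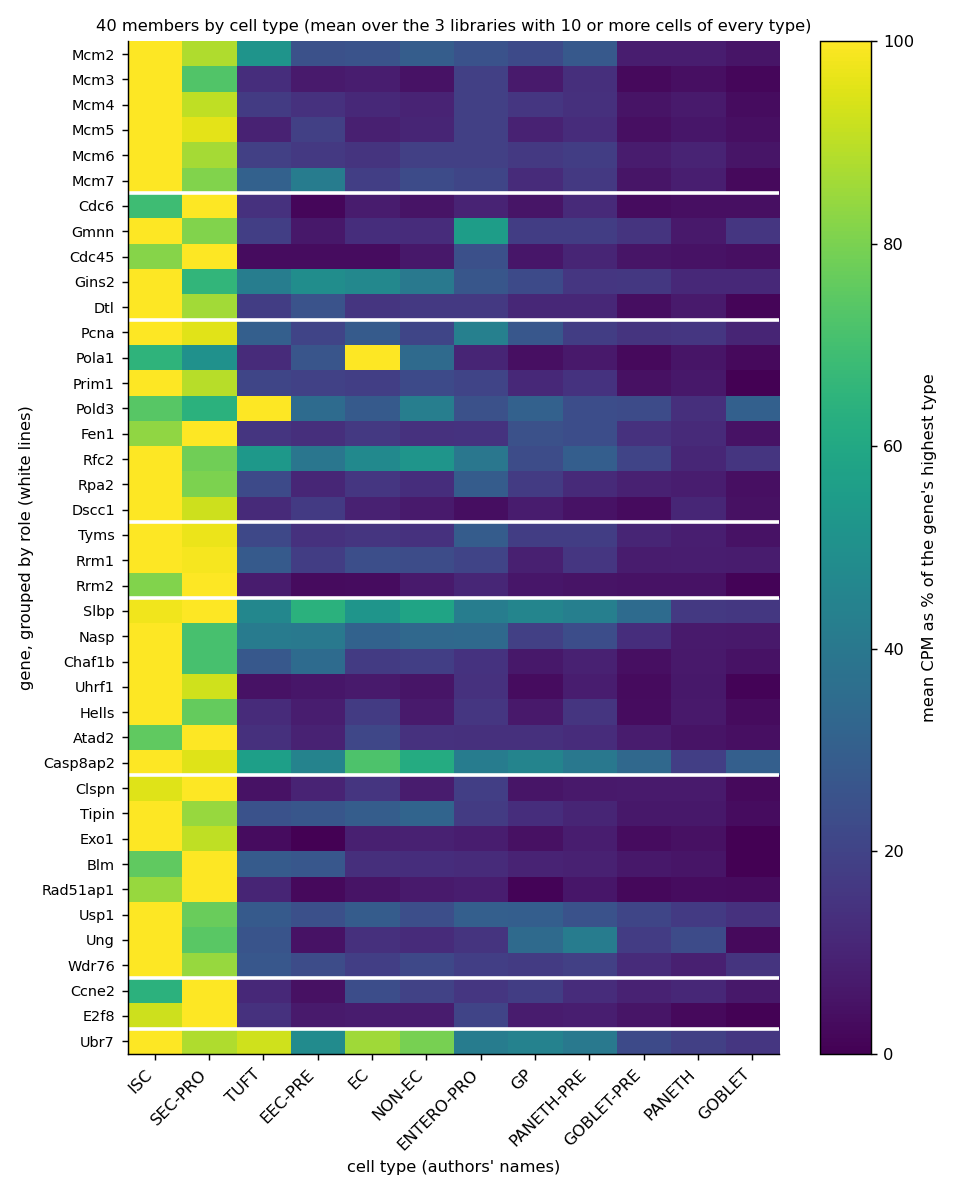
Mean CPM of each of the 40 genes (rows, grouped by role) in 12 cell types (columns), as a percent of the gene's highest type; means are over the 3 libraries with 10 or more cells of every type. The ISC and SEC-PRO columns are bright for nearly all genes, while Pola1 peaks in EC and Pold3 in TUFT.

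Pola1, the catalytic subunit of DNA polymerase alpha, which starts new strands, was the clearest exception. Its level in EC was 107, 111, 91.5 and 85.4 CPM (WT 1, WT 2, APC-KO 1, APC-KO 2), against 63.6, 68.1, 66.0 and 66.0 CPM in ISC. EC was above ISC in each library, and EC was the highest type for Pola1 in each library. Its partner Prim1, the primase, did not share the pattern: its mean over 4 libraries was 57.7 CPM in ISC, and it was at 10.4, 15.0, 7.32 and 12.5 CPM in EC. EC is the enteroendocrine type for which Tph1 and Chga, genes of serotonin-producing cells, served as markers here. Pola1 (chrX:93304767-93632155, minus strand, mm10) overlaps no other gene of the count files, and annotated genes outside those files were not looked at. The neighbouring gene Pcyt1b was also high in EC, at 151, 143, 172 and 151 CPM, and was at most 1.46 CPM in ISC.

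Pold3, a subunit of DNA polymerase delta, was least tied to the other members. It was at 80.8, 102.5, 75.7 and 76.5 CPM in TUFT and at 63.9, 65.3, 0 and 62.7 CPM in ISC, and TUFT was above ISC in every library, with 8 TUFT cells and 13 ISC cells in APC-KO replicate 1. Over 4 libraries its mean in ISC was 1.84 times that in GOBLET (26.1 CPM), the smallest ratio of the members. Casp8ap2, needed for histone gene expression, followed with a ratio of 2.64, and Wdr76 with 4.74. Ubr7, a ubiquitin ligase that binds histones, was spread over ISC (42.0 CPM), TUFT (38.9), SEC-PRO (36.9), EC (35.9) and NON-EC (33.4) in the 3 libraries. Across 45 sums of 1 type in 1 library, Pold3 had Pearson's r = 0.28, on the log2(CPM + 1) scale, with the sum of the other 39 members, Ung 0.54 and Pcna 0.66, and Rrm1 (0.93), Atad2 (0.92) and Rfc2 (0.90) followed that sum most closely. These sums share libraries and depth, and the coefficients describe them only.

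The libraries labelled APC-KO were compared with WT next, first over all kept cells and then within types. Over all cells, no member passed the test (edgeR's quasi-likelihood test, Benjamini-Hochberg adjusted p under 0.05), among 13345 genes of which 0 passed (0%). No member had an unadjusted p under 0.05, against 3.71% of all genes. The members' median log2 fold change was 0.12, against 0.01 over all genes, with 30 of 40 above 0 (50.9% of all genes). Over all cells 1 member, Pcna, had both APC-KO libraries below both WT libraries (26% of all genes) and 0 had them above (8.44%). Its levels were 41.0, 37.2, 14.3 and 30.3 CPM. Without APC-KO replicate 1 the count of members past the threshold became 7, all higher (2.18% of all genes were higher in that fit), and the median 0.64, against -0.0026 over all genes. Without APC-KO replicate 2 it stayed at 0 (0.133% of all genes passed), with a median of -1.32 against -0.01. The APC-KO libraries thus lay on either side of WT: the 40 genes took 0.0976%, 0.0823%, 0.0542% and 0.134% of a cell's UMIs over all kept cells. ISC made up 11.9%, 5.97%, 3.65% and 19.9% of the kept cells and SEC-PRO 11.3%, 10.1%, 1.40% and 13.8%, under the TOM+ sort and the limit on genes per cell, so the mix of types moves with this share. Barcodes of 3000 genes or more, which the authors' tables leave out, carried 0.212%, 0.243%, 0.117% and 0.194%. With those barcodes included, the libraries' shares came to 0.116%, 0.109%, 0.104% and 0.139%.

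Within types, 4 of 12 had both APC-KO libraries on the same side of both WT libraries, ISC and EEC-PRE lower and NON-EC and PANETH higher. With 2 libraries per group, such a separation has a probability of 0.333 when the groups do not differ. In ISC the share was 0.290% ± 0.00598 in WT and 0.261% ± 0.0310 in APC-KO (SD, n = 2). Both APC-KO libraries were below both WT libraries there, APC-KO replicate 2 by less than the distance between the WT libraries. An equal mix of the 9 types with at least 10 cells in every library gave 0.0748% ± 0.000302 in WT and 0.0847% ± 0.00528 in APC-KO (SD, n = 2), a difference of 0.00983 percentage points, which was 0.00609 without APC-KO replicate 2. With PANETH left out, the other 8 types gave 0.0813% ± 0.000278 and 0.0815% ± 0.0172, a difference of 0.000171 points. In NON-EC the share was 0.0656% ± 0.00145 in WT and 0.0740% ± 0.00246 in APC-KO, and in EEC-PRE 0.0718% ± 0.00518 and 0.0591% ± 0.00145. A score over the members is given no p-value.

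**Figure D3:**
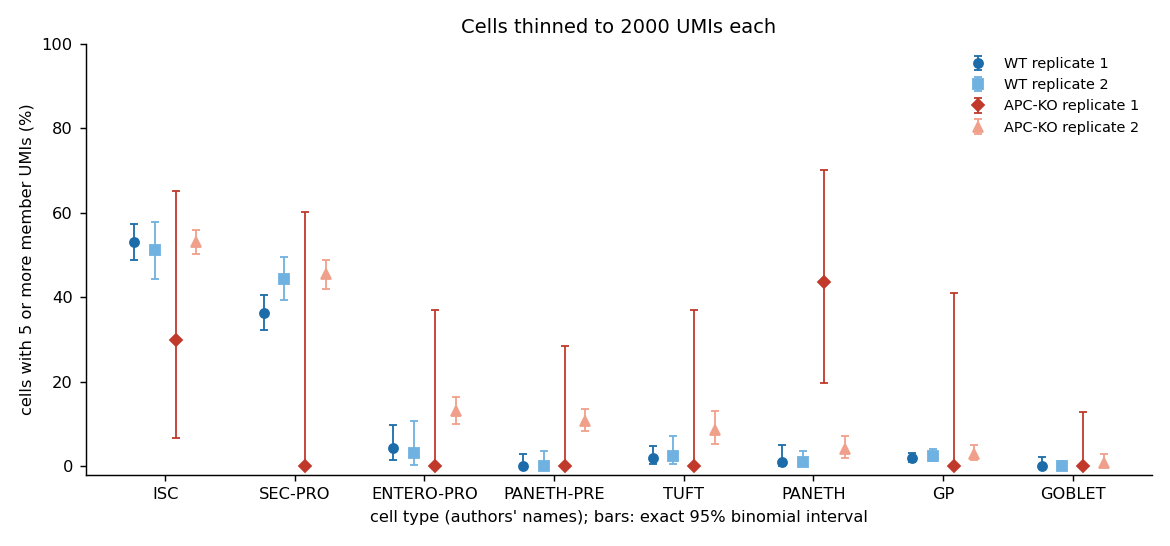
Percent of cells with 5 or more UMIs of the 40 genes after thinning to 2000 UMIs (y axis) in 8 cell types (x axis), 1 point per library, with exact 95% binomial intervals that cover counting error only. ISC and SEC-PRO are near 36% to 53% in the WT libraries and APC-KO replicate 2. APC-KO replicate 2 lies above both WT libraries in each type shown, ENTERO-PRO, PANETH-PRE and TUFT among them. In ISC the margin is very small (53.22% against 53.15% and 51.13%).

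In every type, APC-KO replicate 2 held a higher percent of thinned cells with 5 or more member UMIs than both WT libraries. In EC it was 6.43% against 3.40% and 2.33%, and in GOBLET-PRE 0.469% against 0.396% and 0.322%. The margin was very small in ISC (53.22% against 53.15% and 51.13%) and in EEC-PRE (2.34% against 1.59% and 2.31%). By mean share, APC-KO replicate 2 was below both WT libraries in these types. Thinning left out 62 EC and 44 TUFT cells of APC-KO replicate 2, against 34 and 12 EC and 18 and 4 TUFT cells in WT. The 3 types described here are thus not particular in direction. In PANETH-PRE, ENTERO-PRO and TUFT few WT cells had many member UMIs, and APC-KO replicate 1 held too few cells to compare. In PANETH-PRE, 0 of 120 and 0 of 98 thinned WT cells had 5 or more member UMIs, which allows up to 2.50% and 3.06%, against 64 of 590 (10.8%, exact 95% binomial interval 8.45% to 13.6%) in APC-KO replicate 2 and 0 of 11 in APC-KO replicate 1. In ENTERO-PRO the counts were 5 of 115 (4.35%), 2 of 64 (3.13%), 0 of 8 and 60 of 462 (13.0%, interval 10.1% to 16.4%). In TUFT they were 4 of 213 (1.88%), 3 of 119 (2.52%), 0 of 8 and 20 of 232 (8.62%, interval 5.35% to 13.0%). The unthinned mean shares in PANETH-PRE were 0.0369%, 0.0396%, 0.0203% and 0.0844%, so the APC-KO libraries lay on either side of WT. Free RNA of APC-KO replicate 2 also had the highest member share of the 4 libraries (0.161%), and its part in these cells was not tested.

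Other markers moved in the same cells. PANETH-PRE cells of APC-KO replicate 2 had a lower sum of 6 Paneth markers, at 41344 CPM against 130252 and 110888 in WT and 97636 in APC-KO replicate 1, and a higher sum of 6 stem cell markers, at 1239 CPM against 607, 586 and 410. TUFT cells of APC-KO replicate 2 had 22264 CPM of 6 goblet markers, against 3965, 3195 and 1912 CPM. Doublets were not removed here, and the part of mixed or differently named cells in these shares was not tested.

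PANETH differed in another way. The member share was 0.0234%, 0.0227%, 0.174% and 0.0464%, and both APC-KO libraries were above both WT libraries. With 5 or more UMIs after thinning were 1 of 106, 2 of 200, 7 of 16 (43.8%, exact 95% binomial interval 19.8% to 70.1%) and 11 of 274 (4.01%). In APC-KO replicate 1 the share of UMIs summed over the 16 cells was only 0.0558%, and 6 enterocyte markers summed to 751 CPM there, against 109 and 108 CPM in WT and 251 CPM in APC-KO replicate 2. The 6 goblet markers summed to 7323, 6124, 14438 and 30870 CPM in PANETH, and their part in the result was not tested. Of 23 members tested in PANETH, 0 passed (1.41% of 6942 genes) and 7 had an unadjusted p under 0.05 (12.1% of all genes), the median log2 fold change was 0.60 against -0.01 over all genes, and 19 had both APC-KO libraries above both WT libraries, as had 44.7% of all genes.

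Gene by gene, 2 of 40 members passed the test in ISC, both lower in APC-KO, where 3.57% of 9792 genes passed and 1.29% were lower. Pcna, the sliding clamp that holds polymerases on DNA, was at 100.4, 119, 39.6 and 55.6 CPM. Both APC-KO libraries were below both WT libraries, the first of them from 3 UMIs. Its log2 fold change was -0.92 (SE 0.22, edgeR adjusted p = 0.0031), and with the replicate number as a block the adjusted p was 0.31. It passed without APC-KO replicate 1 and missed the threshold without any other single library (edgeR adjusted p = 0.54 to 1.00). The log2 fold change stayed at -1.49 to -0.90 without single libraries and was -1.07 with the block. Tipin, which protects the paused fork, was at 68.9, 78.0, 92.4 and 38.4 CPM, so the APC-KO libraries lay on either side of WT, the first of them from 13 cells. Its log2 fold change was -0.78 (SE 0.22, edgeR adjusted p = 0.022), and it turned to 0.30 without APC-KO replicate 2. The ISC median over the 40 members was -0.06, against -0.01 over all genes, and 17 of 40 were above 0 (48.9% of all genes).

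**Figure D4:**
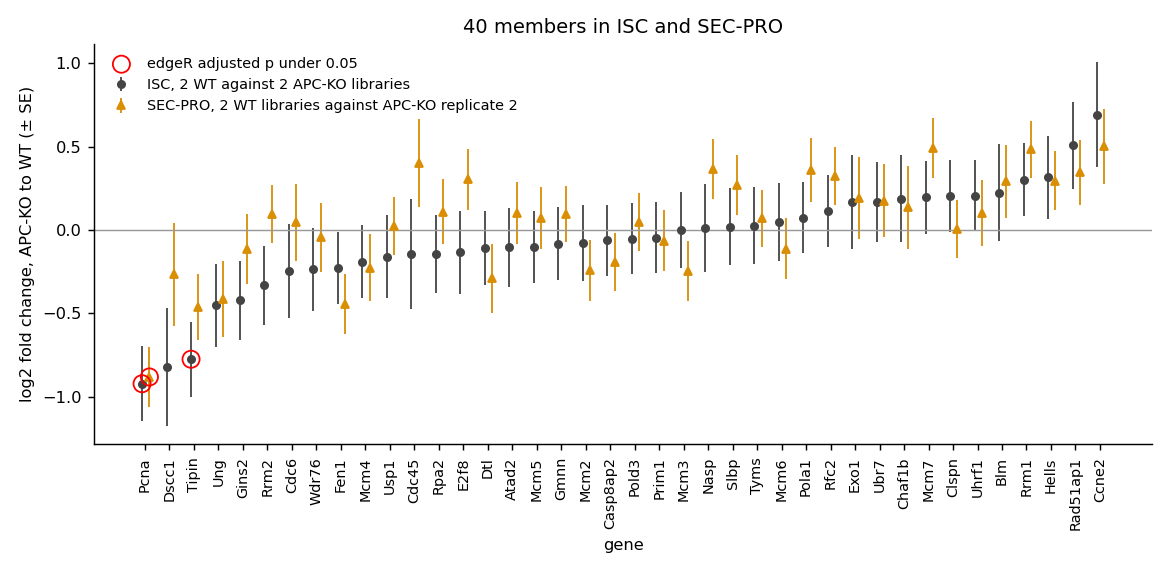
Log2 fold change of APC-KO to WT with its standard error (y axis) for the 40 genes (x axis, in the order of the ISC value), in ISC with all 4 libraries and in SEC-PRO with APC-KO replicate 2 alone; red circles mark genes past the edgeR threshold. Pcna is past it in both types, at -0.92 and -0.88, and Tipin in ISC.

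Of the helicase genes, none passed in ISC. Mcm6 was at 124, 144, 66.0 and 143 CPM and Mcm3 at 96.0, 127, 66.0 and 109 CPM, with APC-KO replicate 2 inside the range of the WT libraries and APC-KO replicate 1, at 5 UMIs for each gene, below it. Their log2 fold changes were 0.05 (SE 0.24) and 0.00 (SE 0.23). Among members with a mean of at least 20 CPM whose groups did not overlap, Ung (-0.45) and Gins2 (-0.42) were the lowest after Pcna, and Blm (0.22), Clspn (0.20) and Chaf1b (0.19) the highest; none of these 5 passed, with edgeR adjusted p of 0.47 to 0.86. In ISC 15 members had both APC-KO libraries below both WT libraries and 3 had them above, beside 26.2% and 11.9% of all genes.

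SEC-PRO had 5 cells in APC-KO replicate 1, so both WT libraries were set against APC-KO replicate 2 alone, and that single library is assumed to vary like WT. In that fit 1 of 40 members passed (6.04% of 10560 genes, 2.12% lower): Pcna, at 95.4 and 114 CPM in WT and 52.8 CPM in APC-KO replicate 2 (log2 fold change -0.88, SE 0.18, edgeR adjusted p = 0.0032). The same fit in TUFT had 1 of 28 members past the threshold (4.45% of 8710 genes, 3.18% higher), Mcm6, at 19.3 and 15.9 CPM in WT and 41.7 CPM in APC-KO replicate 2 (log2 fold change 1.34, SE 0.40, edgeR adjusted p = 0.025). In GP 0 of 34 passed (5.98% of 10228 genes) and 8 had an unadjusted p under 0.05 (16.1% of all genes). These calls compare 1 APC-KO library with WT and have no check in a second one.

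In the other types with 4 libraries no member passed edgeR's test. In EC 19 members were tested (0% of 8690 genes passed), with a median log2 fold change of 0.22, and 2 had an unadjusted p under 0.05 (8.39% of all genes). In GOBLET-PRE 33 were tested (0.00974% of 10272 genes passed), with a median of 0.13, and 1 had an unadjusted p under 0.05 (7.95% of all genes). The single one was Slbp, at 35.6, 42.7, 46.0 and 50.6 CPM, with both APC-KO libraries above both WT libraries (log2 fold change 0.43, SE 0.15, edgeR adjusted p = 0.61). In ENTERO-PRO 16 were tested (0.0788% of 6348 genes passed), with a median of 0.65 against 0.02 over all genes, and 6 had an unadjusted p under 0.05 (7.62% of all genes). In EEC-PRE 14 were tested (0.654% of genes passed, median -0.07, 0 with an unadjusted p under 0.05), and in NON-EC 16 (0.113%, median 0.25, 1 with an unadjusted p under 0.05). In PANETH-PRE 8 were tested (1.53%, median 0.49, 1 with an unadjusted p under 0.05) and in GOBLET 7 (0.0837%, median -0.26, 0 with an unadjusted p under 0.05). Over all genes 8.81%, 8.90%, 12.1% and 11.2% had such a p in these 4 types, and the medians of all genes lay at -0.01 to 0.01. Members with few UMIs were filtered out of these fits, so the medians describe the tested members only.

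Pcna was low beside the other members in nearly every type of APC-KO replicate 2. Its share of the UMIs of the 40 genes was 4.02% and 4.33% over all cells in WT, 3.52% in APC-KO replicate 1 and 2.11% in APC-KO replicate 2. In ISC the share was 3.52%, 3.87%, 1.92% (3 UMIs) and 1.96%. APC-KO replicate 2 was below both WT libraries in 12 of 12 types and APC-KO replicate 1 in 8, with 3 types above; the types of a library are not replicates. The barcodes of 3000 genes or more, which have no cell type, gave 3.48% and 3.85% in WT and 1.89% in APC-KO replicate 2. In APC-KO replicate 1 they gave 2.95% (927 of 31396 UMIs, exact 95% binomial interval 2.77% to 3.15%). Both APC-KO intervals were below both WT intervals there. The intervals cover counting error only, and these barcodes come from the same libraries in which Pcna was picked. Pcna's share also differed between types, at 8.11% in ENTERO-PRO and 2.71% in NON-EC of WT replicate 1. The part of the mix of types in these barcodes was not tested.

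**Figure D5:**
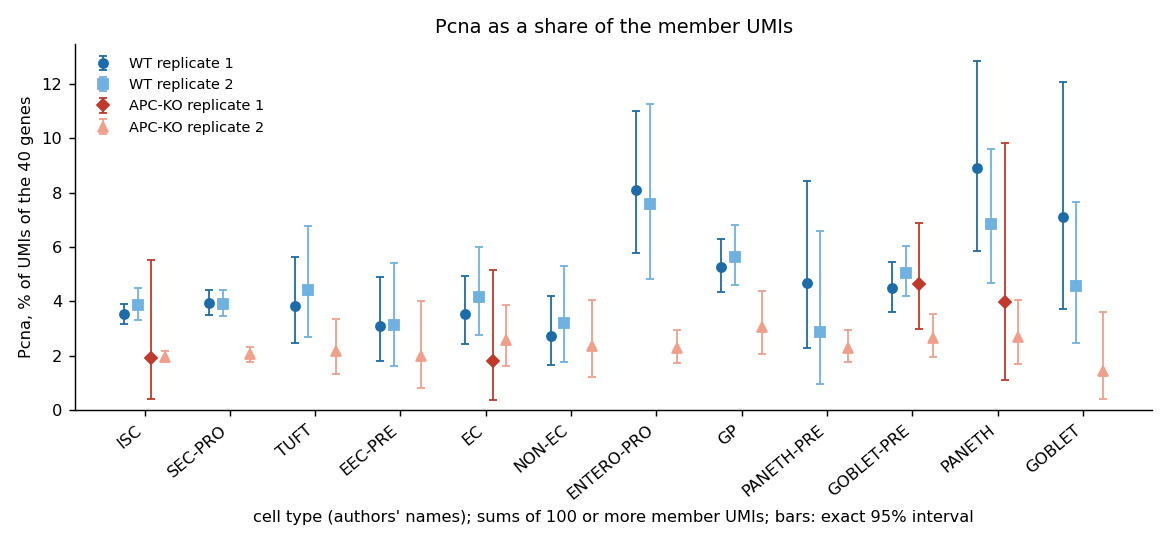
Pcna as a percent of the UMIs of the 40 genes (y axis) by cell type (x axis) and library, for sums of at least 100 member UMIs, with exact 95% binomial intervals. The points of APC-KO replicate 2 lie below those of both WT libraries in all 12 types.

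Reads of a processed copy of Pcna moved the opposite way. Pcna-ps2, a pseudogene with its own entry in the count files, had 3, 8, 3 and 136 UMIs over all kept cells. In the barcodes of 3000 genes or more it had 6, 6, 183 and 43 UMIs, or 0.497, 0.615, 8.06 and 6.39 CPM, so both APC-KO libraries were above both WT libraries. Pcna and Pcna-ps2 added together in ISC came to 101, 121, 52.8 and 64.0 CPM, still lower in both APC-KO libraries. In APC-KO replicate 1 this ISC value rests on 3 Pcna UMIs and 1 Pcna-ps2 UMI. Over all kept cells the sum was 41.1, 37.6, 15.3 and 35.3 CPM. In the barcodes of 3000 genes or more, Pcna-ps2 came to 0.0235%, 0.0257%, 0.583% and 0.340% of the member UMIs, beside 3.48%, 3.85%, 2.95% and 1.89% for Pcna. With the copy added to this share, APC-KO replicate 1 was not below WT replicate 1. APC-KO replicate 2 stayed below both WT libraries. How the counting divided reads between Pcna and its copy was not tested, and Pcna's values are uncertain to that extent. The other members have no pseudogene named after them in the files.

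Genes outside the 40 that act in the same phases were read from 5 further lists. Of 40 other replication genes tested in ISC, 2 were higher in APC-KO, Rfc3 and Dbf4, and 1 was lower, Rpa3 (3.57% of all genes passed), with a median log2 fold change of 0.09, beside -0.01 over all genes. None of the 40 passed with DESeq2, with the replicate number as a block, or without WT replicate 1, WT replicate 2 or APC-KO replicate 2. Rfc3, a clamp loader subunit, was at 82.3, 83.7, 26.4 and 162 CPM in ISC. Rpa3, a subunit of the single-strand binding protein, was at 47.0, 59.6, 66.0 and 17.5 CPM. In both, APC-KO replicate 1 lay on the other side of WT from APC-KO replicate 2. Its ISC sum holds 75796 UMIs of 13 cells, so these values rest on few UMIs. Rfc2 and Rpa2, members of the same 2 complexes, did not pass. In NON-EC Rfc3 was at 25.6, 23.3, 57.1 and 88.8 CPM, both APC-KO libraries above both WT libraries (log2 fold change 1.85, SE 0.32, edgeR adjusted p = 0.035). The NON-EC sum of APC-KO replicate 1 holds 70025 UMIs of 13 cells.

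Of 40 genes of G2 and mitosis tested in ISC, 7 were higher and 0 lower in APC-KO (2.29% of all genes were higher), and the median log2 fold change was 0.46. Their mean share of a cell's UMIs in ISC was 0.489%, 0.358%, 0.635% and 0.507%. Thinned ISC cells with 5 or more of their UMIs made up 61.8%, 51.1%, 70.0% and 57.3%, so APC-KO replicate 2 lay between the WT libraries. Nusap1, a spindle protein, was at 73.2, 36.9, 158 and 155 CPM (log2 fold change 1.47, SE 0.22, edgeR adjusted p = 2.9e-08), and Top2a, which untangles chromosomes, at 368, 207, 554 and 541 CPM (0.94, SE 0.29, edgeR adjusted p = 0.035). Both APC-KO libraries were above both WT libraries for these 2 genes, which also differed by more than 1.5 times between the WT libraries. The count was 0 without WT replicate 2, 1 with the replicate number as a block and 0 with DESeq2. Mki67 and Cdk1 did not pass in ISC, at 432, 275, 343 and 472 CPM and at 63.3, 52.5, 92.4 and 51.1 CPM. No test compared these genes with the replication genes.

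Among G1 regulators in ISC, E2f3 passed as higher (35.3, 29.8, 0 and 74.7 CPM, log2 fold change 1.14, SE 0.23, edgeR adjusted p = 1.1e-04) although it had no UMI in APC-KO replicate 1, and Myc was lower (56.3, 66.0, 0 and 29.4 CPM, -1.01, SE 0.24, edgeR adjusted p = 0.0022). Ccnd1, cyclin D1, was at 247, 253, 211 and 227 CPM and did not pass. None of the 20 other G1/S genes passed in ISC with edgeR, and 1 had an unadjusted p under 0.05, as had 12.2% of all genes. In PANETH, Mki67 (9.49, 8.70, 77.4 and 45.5 CPM) and Top2a (15.6, 5.80, 55.3 and 60.2 CPM) were higher, with log2 fold changes of 1.83 and 1.85 (edgeR adjusted p = 0.019 and 0.020), and Cdkn1a, which stops the cycle, was lower (88.1, 215, 55.3 and 75.3 CPM, -1.75, edgeR adjusted p = 0.019). In PANETH-PRE, Mki67 (17.9, 25.2, 28.0 and 67.3 CPM) and Hmgb2 (66.6, 61.8, 131 and 351 CPM) were higher. Of 8 genes of G2 and mitosis tested there, 2 passed, both higher, beside 0.772% of all genes. In PANETH 2 of 15 passed, both higher, beside 0.591% of all genes. The sums of APC-KO replicate 1 hold 107204 UMIs of 11 cells in PANETH-PRE and 180977 UMIs of 16 cells in PANETH. Leaving out either APC-KO library cannot check these calls, because the group then has no replicate.

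All 6 CDK inhibitor genes tested over all cells had a log2 fold change below 0 (median -0.33), where 50.9% of all genes were above 0. None passed with edgeR (1 with an unadjusted p under 0.05, as had 3.71% of all genes). Cdkn1b was at 105, 99.7, 68.4 and 72.6 CPM, with both APC-KO libraries below both WT libraries, as had 26% of all genes. Cdkn1c was at 85.1, 81.9, 73.1 and 34.6 CPM over all cells, and at 1263, 1560, 1371 and 807 CPM in NON-EC, the enteroendocrine type where it was concentrated. NON-EC made up 6.34%, 4.92%, 3.65% and 3.48% of the kept cells, so sums over all cells also follow the mix of types.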

How the data were processed

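Single-cell RNA was counted in 4 libraries, 2 WT and 2 APC-KO. UMI counts per gene and barcode were used as deposited; the submitters' processing notes name Cell Ranger 3.0.2, STAR and mm10. The authors' deposited tables list the kept cells, their cell type, their UMI and gene counts and their percent of mitochondrial UMIs, which was under 7 in every kept cell. Doublet treatment is not given in the sources used here, and no doublets were removed.

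Counts were summed per type and library. Types with at least 10 cells in every library (9 of 12) were tested with edgeR 4.0.16 (quasi-likelihood, TMM, Benjamini-Hochberg adjustment over all genes tested, threshold 0.05), using R 4.3.3; the fits were tested on simulated data. For GP, SEC-PRO and TUFT both WT libraries were set against APC-KO replicate 2. DESeq2 1.42.0 was an alternative. Cells were thinned to 2000 UMIs for shares of cells. Intervals are exact binomial (95%), limits for a count of 0 use 3 counts, and both cover counting error only. Named genes were a short list of core members, the 8 members with the highest mean, every member past the threshold, the 3 largest rises and falls with a mean of at least 20 CPM and groups that did not overlap (over all cells, in ISC and in GOBLET-PRE), the 3 most and 3 least correlated with the other members, the 3 largest and 3 smallest ISC to GOBLET ratios and, from related lists, 8 core genes and those past the threshold (at most 6 a fit). Other members named by type were chosen after their values were seen. Members and lists were chosen with earlier results of these data known.

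Gene positions are from GENCODE on mm10 and promoter sequences from RefSeq (GRCm38.p6).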

Additional observations from a re-analysis of the deposited data

How the results depend on the processing

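The 12.5-fold ratio of the ISC to the GOBLET share was 15.1 with free RNA subtracted, 16.6 with genes weighted equally and 16.7 without mitochondrial, ribosomal protein and defensin genes in the total (11.8 to 13.3 with single libraries left out). In the same order, the APC-KO minus WT share over the equal mix was 0.00479, 0.00292 and 0.0164 percentage points, 0.00297 with UMIs summed over cells and 0.000171 without PANETH, chosen after seeing the data; in NON-EC it was 0.0127, 0.0225 and 0.0122. Values with free RNA subtracted or with equal weights were computed from UMIs summed over cells, so these settings change the averaging as well. By summing alone, the ISC shares were 0.285% and 0.308% in WT and 0.206% and 0.284% in APC-KO. The NON-EC shares were then 0.0664% and 0.0640% in WT and 0.0700% and 0.0812% in APC-KO. In ISC the APC-KO minus WT share was -0.0526 with free RNA subtracted and -0.0619 with equal weights. With summed UMIs, free RNA subtracted and equal weights, it was -0.00798, -0.00602 and -0.00867 in GP and -0.0641, -0.0660 and -0.0606 in SEC-PRO, and -0.0839 there for cells with at least 2000 UMIs; these GP and SEC-PRO differences were added after seeing the data and rest on 7 and 5 cells in APC-KO replicate 1. Leaving out single libraries moved the count of members past the threshold over all cells between 0 and 7, and within types between 0 and 10.

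The 2 calls within types became 0 with DESeq2, 0 with the replicate block, 0 after thinning, 0 in types with at least 20 cells per library, 1 with free RNA subtracted, 9 without a filter and 4 with GP, SEC-PRO and TUFT added. The G2/M count in ISC (7) became 0 with DESeq2, 1 with the replicate block and 1 after thinning, and lay between 0 and 10 with single libraries left out. The other replication count (3) became 0 with DESeq2 and 0 with the replicate block, and lay between 0 and 3. Clspn in ISC turned to -0.19 after thinning, and Tipin ranged from -0.85 to 0.30 with single libraries left out. The causes were not tested. Deviations of same-numbered libraries from their group means had a correlation of -0.23 over all cells and 0.02 in ISC. With 2 libraries per group, this cannot show whether libraries of the same number were handled together. The crossed block over all cells gave 0 members.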
